A study of Mus musculus with 8 samples.

Results

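The genes described here encode the enzymes that build cholesterol and fatty acids, with the proteins that switch those enzymes on and move sterol inside the cell. They were chosen by symbol from the expression table of mouse limbus and cornea, and all 29 were found among its 23420 named genes. Each of the 29 had more than 3 reads in both tissues, the limit set here for a ratio, which 13862 named genes passed and which are the genes tested below. RNA was taken from the limbal rims and the corneal buttons of wild-type C57BL/6J mice of 8 weeks, 16 eyes pooled by tissue, with no treatment in either group. The limbal rim is the ring at the border of cornea and sclera that houses the epithelial stem cells, and the corneal button is the tissue inside that ring. The libraries were of stranded total RNA, read as paired ends, and the labels list 8 samples, 4 per tissue, with numbers of the kind given to sequencing lanes.

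Cells make cholesterol from acetyl-CoA through mevalonate, isoprenoid diphosphates, squalene and lanosterol, and the intermediate isoprenoids also serve protein prenylation, ubiquinone and dolichol. Fatty acids are built from the same acetyl-CoA and are then lengthened and desaturated. Both pathways are transcribed under SREBP factors, which are held in the endoplasmic reticulum by Insig proteins when sterol is plentiful and are carried by Scap to the Golgi for cleavage when it is scarce. In a stratified surface epithelium such as that of the cornea, these lipids go into the membranes of dividing and differentiating cells.

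The deposited values were means over 1 library per tissue, from which the reads of each library were worked back. Reads on named genes came to 26104317 for the cornea library and 21182025 for the limbus library. Ratios are given on the log2 scale as limbus over cornea, so that a negative value means more in the cornea, after dividing the reads of each library by its size factor. The 95% interval in parentheses comes from the share of a gene's reads that were limbal (exact, Clopper-Pearson), and it covers counting error alone, since PCR copies cannot be told from separate molecules. With 1 library per tissue there was no replicate check and no test across replicates. A gene "tested" was set against counting error only, and "higher" below means that the interval lay on that side of 0. In whole tissue, fewer cells of a type and less RNA per cell cannot be told apart.

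Most of the 29 genes were higher in the cornea. Of them 25 were higher in the cornea, 3 were higher in the limbus (Fdps, Ebp and Scap), and for Dhcr7 the interval included 0. Among all genes tested, 40.6% were higher in the cornea and 33.2% in the limbus by the same rule. A ratio of at least 1.5-fold was reached by 15 of the 29 genes in the cornea and by 0 in the limbus, where the shares over all genes tested were 20.5% and 19.8%. Their median log2 ratio was -0.60, beside -0.05 for all genes tested. These genes are abundant, and among the 4989 genes with a mean at least as high as that of the scarcest of them, 56.7% were higher in the cornea and 28.8% in the limbus, with a median of -0.19. By 1.5-fold, the shares of those 4989 genes were 23.4% in the cornea and 7.82% in the limbus. Together the 29 genes took 0.689% of the cornea reads and 0.424% of the limbus reads, and their normalized reads summed to 174019 and 92830, 1.87-fold more in the cornea. Without Scd2, which alone gave the most reads, the sum was 1.60-fold higher in the cornea.

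Scaling to total reads raised every log2 ratio by 0.21, moved the median of all genes tested to 0.15 and lowered the share of genes on the corneal side from 53.4% to 41.1%. Under that scaling 23 of the 29 genes were higher in the cornea against 4 in the limbus, and their median was -0.39. With the trimmed mean of M-values, which raised every log2 ratio by 0.02, 25 were higher in the cornea against 4 in the limbus, the fourth being Dhcr7.

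**Figure D1:**
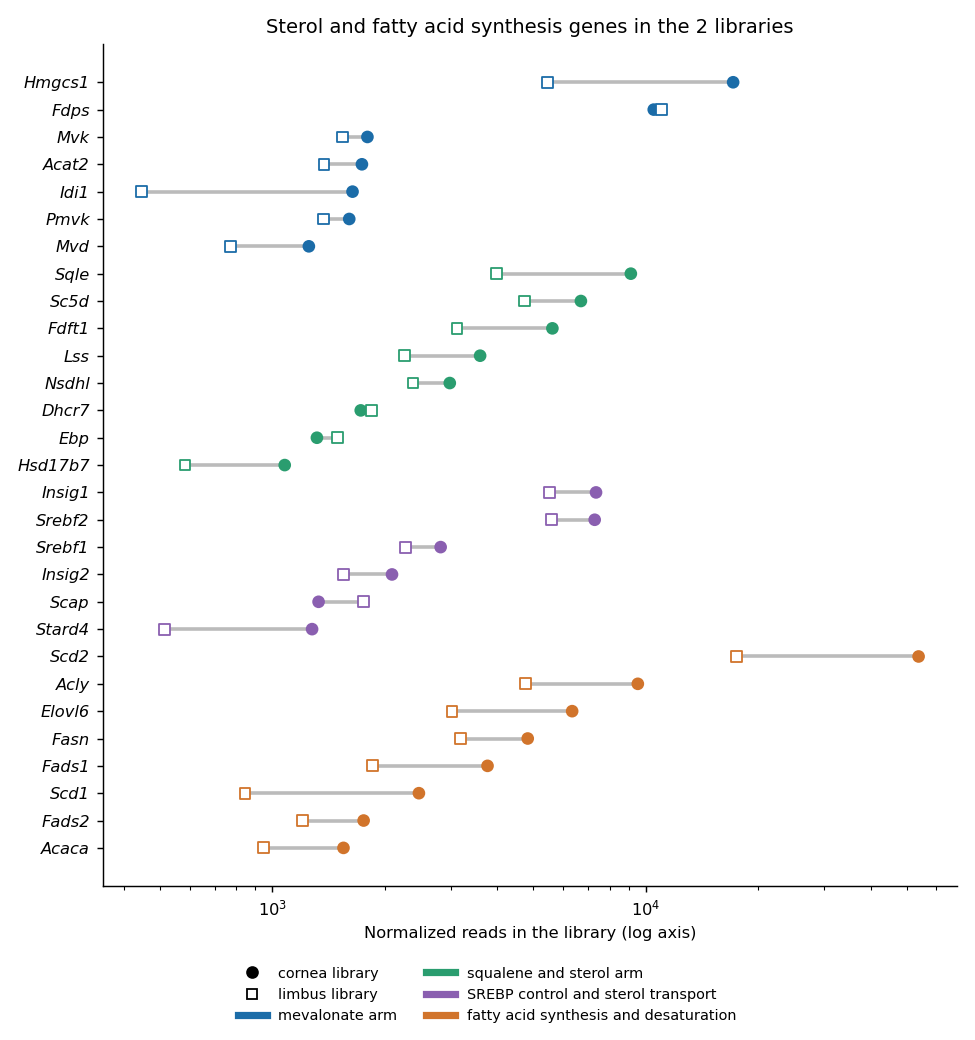
Normalized reads (log axis) of each gene in the cornea library (filled circles) and the limbus library (open squares), ordered within the 4 groups by corneal level and joined by a line. The circle lies to the right of the square for 25 genes, with the longest gaps at Idi1, Hmgcs1, Scd1 and Scd2, whereas Fdps, Dhcr7, Ebp and Scap have the square to the right; reads are not divided by gene length.

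The mevalonate arm leads from acetyl-CoA to farnesyl diphosphate, and 6 of its 7 genes were higher in the cornea, 3 of them by at least 1.5-fold, with a median log2 ratio of -0.34. Idi1, the isomerase that converts isopentenyl to dimethylallyl diphosphate, had 1694 corneal and 431 limbal reads. Its log2 ratio of -1.88 (-2.03 to -1.73), 3.68-fold higher in the cornea, was the most negative of the 29. Only 1.47% of all genes tested had a lower ratio. Hmgcs1 encodes the cytosolic synthase that makes HMG-CoA. It had 17716 corneal and 5286 limbal reads, a log2 ratio of -1.65 (-1.69 to -1.60) or 3.14-fold. Mvd, the decarboxylase that yields isopentenyl diphosphate, had 1294 corneal and 748 limbal reads and a log2 ratio of -0.69 (-0.83 to -0.56). These 3 enzymes showed the gap between the tissues most clearly, and the other steps of the arm lay nearer to 0.

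Acat2, the thiolase that joins acetyl-CoA units, had 1795 corneal and 1329 limbal reads, a log2 ratio of -0.34 (-0.44 to -0.23). Its neighboring near-copy Acat3 had 1 corneal and 4 limbal reads, and how reads shared by both genes were counted is not given in the sources used here. The kinases that phosphorylate mevalonate in turn were close to each other. Mvk had 1857 corneal and 1487 limbal reads (log2 ratio -0.22, -0.32 to -0.13), and Pmvk had 1660 and 1323 (log2 ratio -0.23, -0.34 to -0.13). Scaled to total reads, their log2 ratios were -0.02 and -0.03 and both intervals included 0. Fdps, the synthase that makes farnesyl diphosphate, was the exception of the arm. It had 10858 corneal and 10642 limbal reads, and its log2 ratio of 0.07 (0.03 to 0.11) corresponds to 1.05-fold in favor of the limbus. A protein-coding gene model, Gm43738, shares exon sequence with Fdps on the same strand.

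The squalene and sterol arm turns farnesyl diphosphate into cholesterol, and 6 of its 8 genes were higher in the cornea, 4 of them by at least 1.5-fold, with a median log2 ratio of -0.59. The steps up to lanosterol all lay on the corneal side. Sqle, the epoxidase that oxidizes squalene, had 9427 corneal and 3855 limbal reads, a log2 ratio of -1.19 (-1.25 to -1.14) or 2.29-fold. Fdft1, the squalene synthase that commits farnesyl diphosphate to sterols, had 5811 corneal and 3019 limbal reads and a log2 ratio of -0.85 (-0.91 to -0.79). Lss cyclizes the epoxide to lanosterol. It had 3721 corneal and 2179 limbal reads, a log2 ratio of -0.68 (-0.75 to -0.60). Ctsb overlaps exons of Fdft1 on the opposite strand, and whether reads were counted by strand is not given in the sources used here.

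The enzymes after lanosterol went both ways. Hsd17b7, the ketoreductase of C4 demethylation, had 1115 corneal and 564 limbal reads, a log2 ratio of -0.89 (-1.04 to -0.74). Nsdhl, the dehydrogenase of the same C4 complex, had 3086 corneal and 2301 limbal reads, and its log2 ratio of -0.33 (-0.41 to -0.25) was nearer to 0 than that of its partner. Sc5d, which puts in the C5 double bond, had 6928 corneal and 4575 limbal reads and a log2 ratio of -0.50 (-0.56 to -0.45). Ebp, the isomerase that shifts the C8 double bond, went the other way. It had 1360 corneal and 1448 limbal reads, a log2 ratio of 0.19 (0.08 to 0.29). Dhcr7, the reductase that ends a branch of the pathway, had 1782 corneal and 1780 limbal reads. Its log2 ratio was 0.09 with an interval of -0.0014 to 0.19, so with the size factors no difference could be detected at this depth. Under each of the other scalings, total reads, trimmed mean and centring on the median, the interval of Dhcr7 lay on the limbal side of 0, at log2 ratios of 0.11 to 0.30.

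The control proteins sit above both pathways, and 5 of the 6 were higher in the cornea by a median log2 ratio of -0.40 over the group, but 1 of them, Stard4, by at least 1.5-fold. Srebf2, the factor known mainly for sterol genes, had 7543 corneal and 5410 limbal reads, a log2 ratio of -0.38 (-0.43 to -0.33). Srebf1, the factor known mainly for fatty acid genes, had 2917 corneal and 2194 limbal reads and a log2 ratio of -0.32 (-0.40 to -0.23). The table gives 1 value per gene and does not separate the Srebf1 isoforms, and Rai1 overlaps its exons on the opposite strand. The retention proteins had values close to those of the factors. Insig1 had 7606 corneal and 5329 limbal reads (log2 ratio -0.42, -0.47 to -0.37), and Insig2 had 2161 and 1499 (log2 ratio -0.43, -0.53 to -0.34).

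Scap, the escort that binds the SREBP factors and senses sterol, had the highest ratio of the 29 genes. It had 1374 corneal and 1692 limbal reads, a log2 ratio of 0.40 (0.29 to 0.50) or 1.32-fold in favor of the limbus. Stard4, a soluble carrier that moves cholesterol between membranes, stood at the other end of the group. It had 1320 corneal and 498 limbal reads, a log2 ratio of -1.31 (-1.46 to -1.16) or 2.48-fold in favor of the cornea.

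All 8 genes of fatty acid synthesis and desaturation were higher in the cornea, 7 of them by at least 1.5-fold, with a median log2 ratio of -1.01. Their summed normalized reads, most of them from Scd2, were 2.52-fold higher in the cornea. Synthesis begins with Acly, the lyase that splits citrate to acetyl-CoA in the cytosol. It had 9842 corneal and 4598 limbal reads, a log2 ratio of -1.002 (-1.05 to -0.95). Acaca, the carboxylase that makes malonyl-CoA, had 1602 corneal and 916 limbal reads and a log2 ratio of -0.71 (-0.83 to -0.59). Fasn, the synthase that assembles palmitate, had 4991 corneal and 3088 limbal reads, and its log2 ratio of -0.60 (-0.66 to -0.53) corresponds to 1.51-fold, just past the limit of 1.5-fold. Elovl6 extends palmitate to stearate. It had 6564 corneal and 2927 limbal reads and a log2 ratio of -1.07 (-1.13 to -1.01).

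The desaturases that follow held both the lowest ratios of this group, those of Scd1 and Scd2, and the one nearest to 0, that of Fads2. Scd2, a stearoyl-CoA desaturase that makes oleate and palmitoleate, had the most reads of all 29 genes, 55607 in the cornea against 16905 in the limbus. Its log2 ratio was -1.62 (-1.65 to -1.60), 3.08-fold in favor of the cornea, and 2.45% of all genes tested had a lower one. Its neighbor Scd1, with the same activity, had 2551 corneal and 817 limbal reads and a log2 ratio of -1.55 (-1.66 to -1.43). Both genes lie on chromosome 19, Scd2 from 44293674 to 44306864 and Scd1 from 44394455 to 44407879 (GRCm38), and since they are close copies the counting could have moved some reads between them. Fads1 and Fads2 make polyunsaturated fatty acids at the delta-5 and delta-6 steps. Fads1 had 3895 corneal and 1796 limbal reads (log2 ratio -1.02, -1.10 to -0.94). Fads2 had 1814 and 1164 (log2 ratio -0.54, -0.65 to -0.44) and was the gene of this group that stayed under 1.5-fold, at 1.46-fold.

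**Figure D2:**
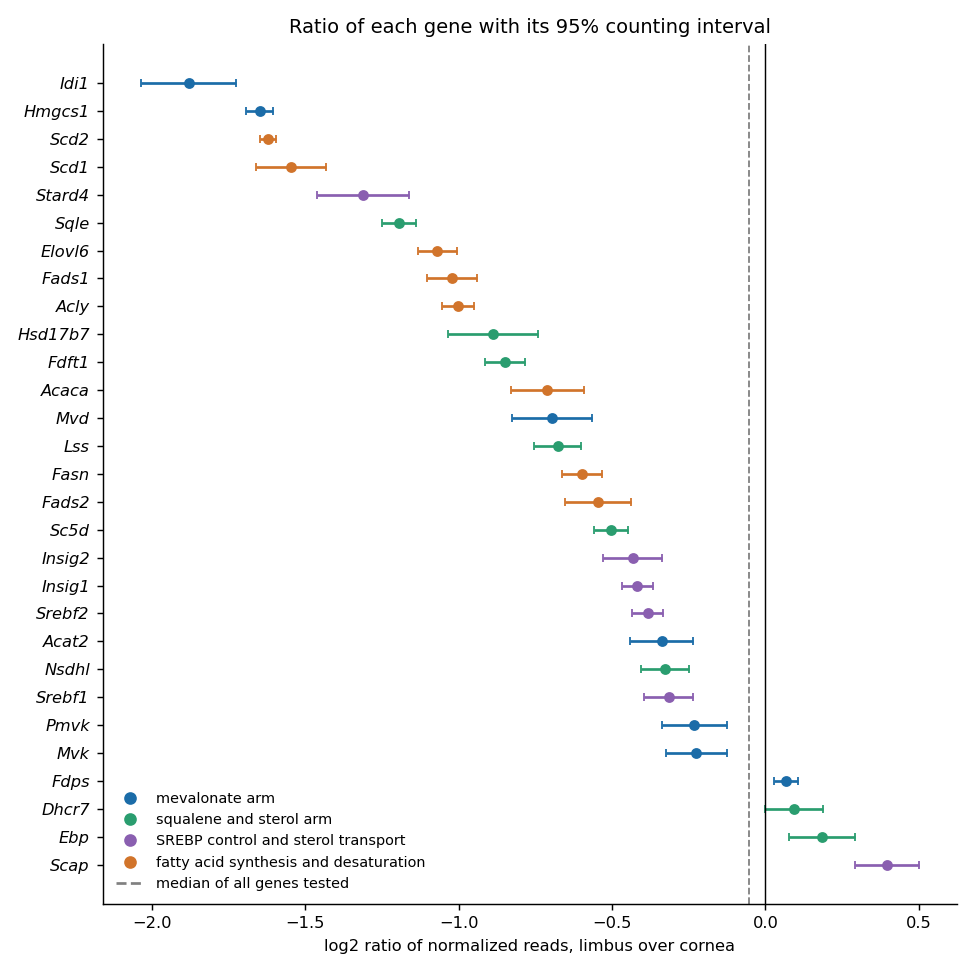
The log2 ratio of limbus over cornea of each gene, sorted, with its 95% counting interval, colored by group; the solid line marks 0 and the dashed line the median of all genes tested, -0.05. Intervals of 25 genes lie left of 0, from Idi1 at -1.88 to Mvk at -0.22, those of Fdps, Ebp and Scap lie right of it, and that of Dhcr7 touches it.

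For 6 pairs of related genes the difference of their log2 ratios was computed, with a normal interval of the log odds that again covers counting error only. For the paralogs Scd1 and Scd2 it was 0.08 (-0.04 to 0.19), for Insig1 and Insig2 0.01 (-0.09 to 0.12), and for Srebf1 and Srebf2 0.07 (-0.03 to 0.16). For these 3 pairs the interval included 0 and bounds the difference at no more than 0.19 on the log2 scale. Fads1 and Fads2, which lie head to head on chromosome 19 (GRCm38, 10062765 to 10196877 over both), did differ, with Fads1 further toward the cornea by -0.48 (-0.61 to -0.34). Within the mevalonate arm the differences were larger. Hmgcs1 lay below Mvk by -1.42 (-1.53 to -1.32), and Idi1 lay below Fdps by -1.95 (-2.10 to -1.79). None of these differences moves with the scaling, which shifts all genes alike.

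Levels can be compared between genes only per length, and the following are normalized reads per kb of a gene's summed exon length. By that length Scd2 was first of the 29 in both tissues, with 9845 per kb in the cornea against 3198 in the limbus. In the cornea, Hmgcs1 (3730 per kb), Fdps (2496) and Insig1 (2379) came next, and in the limbus the order after Scd2 was Fdps (2614), Insig1 (1781) and Hmgcs1 (1189). Hmgcs1 thus ranked 2 in the cornea and 4 in the limbus. Acaca, with very long summed exons, was last in both, at 90.8 and 55.5 per kb. With the longest protein-coding transcript as the length, an alternative chosen after seeing the data, Scd2 stayed first in the cornea, with Fdps ranked 2 and Hmgcs1 ranked 3. In the limbus Fdps then ranked 1, at 7960 per kb, and Scd2 ranked 2, at 3204 per kb, so the order of these genes in the limbus depended on the length used. Per kb, Scd2 stood 19.5-fold above Scd1 in the cornea and 18.5-fold in the limbus, and Srebf2 stood 2.03-fold and 1.93-fold above Srebf1. Within each of these pairs the same gene led in both tissues.

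**Figure D3:**
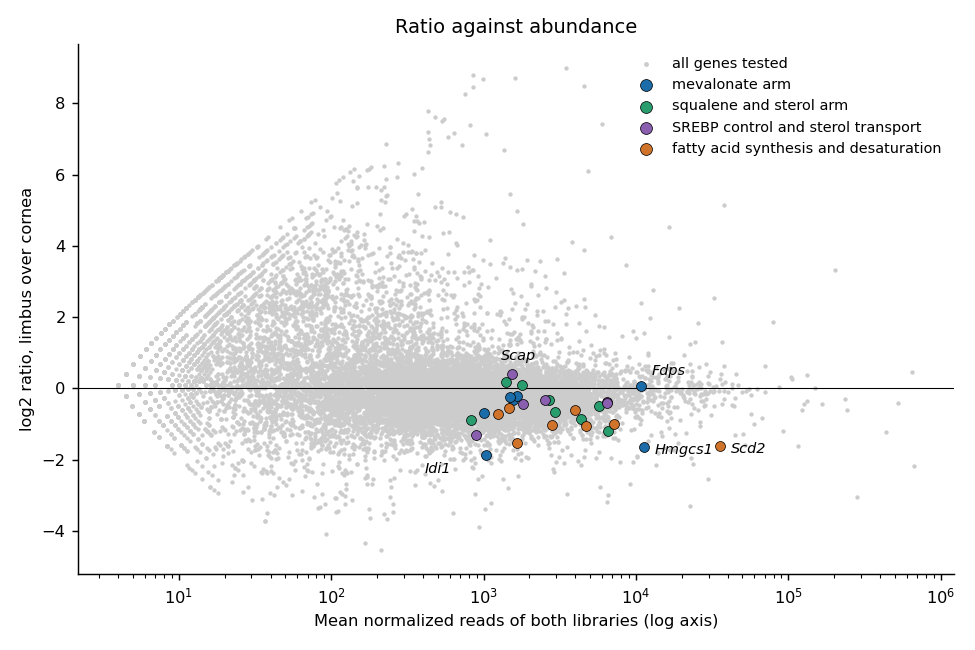
The log2 ratio of limbus over cornea (vertical axis) against the mean normalized reads of both libraries (log axis) for all 13862 genes tested (gray) and the 29 genes (colored by group). The colored points lie at means of 831 or more and mostly below 0. Of the colored points below 0, Scd2 and Hmgcs1 have the highest means.

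Promoter windows from RefSeq (GRCm38.p6), 250 bases before to 50 after a gene's start, were matched by symbol for 22 of the 29 genes, giving 30 windows. No window was matched for Fdps, Fdft1, Sqle, Stard4, Scd1, Scd2 and Fads1. All of these but Fdps were at least 1.5-fold higher in the cornea, so the motif counts leave them out. In the 30 windows, on both strands, 4 short motifs were searched: CCAAT (the NF-Y box), GGGCGG (the GC box bound by Sp1), TCACCCCAC (the classic sterol element) and CACGTG (an E-box). CCAAT was in 18 of the 30 windows (60%), in 37.4% of all 32851 windows and in 36.1% of the windows of genes at least as abundant as the scarcest of these. GGGCGG was in 22 (73.3%), against 35.7% of all windows and 66.8% of those of abundant genes. CACGTG was in 6 (20%), against 7.15% of all windows and 10.3% of those of abundant genes, and TCACCCCAC in 1, that of Hmgcs1, against 0.551% and 0.645%. Of these, 4 windows are printed 5′ to 3′ in the gene's direction with these motifs, read on either strand, in capitals (ATTGG and CCGCCC are CCAAT and GGGCGG on the other strand). They were picked after the values were seen, to show 3 genes at least 1.5-fold higher in the cornea and, last, the gene with the highest limbal ratio.
Idi1 (chr13:8885356-8885655, plus strand): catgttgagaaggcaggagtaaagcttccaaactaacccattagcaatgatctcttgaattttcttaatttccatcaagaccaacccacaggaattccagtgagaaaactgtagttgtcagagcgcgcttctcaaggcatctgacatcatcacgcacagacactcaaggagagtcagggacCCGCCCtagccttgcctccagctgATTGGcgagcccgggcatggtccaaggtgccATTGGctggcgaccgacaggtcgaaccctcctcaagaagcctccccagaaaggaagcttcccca
Hmgcs1 (chr13:119690101-119690400, plus strand): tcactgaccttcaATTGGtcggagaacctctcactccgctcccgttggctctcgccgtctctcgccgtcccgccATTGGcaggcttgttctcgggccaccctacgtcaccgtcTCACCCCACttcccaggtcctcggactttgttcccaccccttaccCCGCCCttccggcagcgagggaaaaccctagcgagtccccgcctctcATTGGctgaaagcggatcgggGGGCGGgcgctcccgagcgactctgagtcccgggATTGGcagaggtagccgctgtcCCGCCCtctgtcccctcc
Acly (chr11:100527951-100528250, minus strand): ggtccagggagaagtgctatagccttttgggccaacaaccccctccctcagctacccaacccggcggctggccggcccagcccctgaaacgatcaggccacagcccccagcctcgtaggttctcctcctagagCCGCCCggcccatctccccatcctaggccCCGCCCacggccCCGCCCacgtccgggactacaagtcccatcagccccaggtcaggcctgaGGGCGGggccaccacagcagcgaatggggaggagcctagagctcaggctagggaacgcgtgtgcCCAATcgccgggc
Scap (chr9:110333038-110333337, plus strand): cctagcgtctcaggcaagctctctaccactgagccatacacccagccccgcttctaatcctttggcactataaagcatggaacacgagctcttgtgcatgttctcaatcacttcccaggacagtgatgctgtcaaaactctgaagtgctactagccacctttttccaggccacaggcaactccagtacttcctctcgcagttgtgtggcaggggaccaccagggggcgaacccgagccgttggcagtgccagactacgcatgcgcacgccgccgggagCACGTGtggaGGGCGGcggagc
The Hmgcs1 window holds the sterol element at -137 to -129 from the start and CCAAT on the minus strand at -237, -176, -45 and 11. Idi1 has CCAAT on the minus strand at -45 and -14 and a GC box at -69. Acly has GC boxes at -117, -88, -76 and -27 and a CCAAT after its start, at 38. Scap has no CCAAT in its window and holds an E-box at 29 and a GC box at 39. Of the 19 genes higher in the cornea that have a window, 15 hold CCAAT and Acat2, Acaca, Elovl6 and Fads2 lack it. Counted by gene in this way, CCAAT was in 17 of the 22 genes. It was in 4392 of the 10244 genes tested that have a window and in 1599 of the 3799 abundant ones. Only 2 genes higher in the limbus have a window, Ebp with CCAAT and Scap without it, too few to compare the directions. A match is a run of letters and says nothing about binding.

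Other enzymes of sterol synthesis outside the 29 went mostly the same way, with 5 of 6 tested higher in the cornea against 1 in the limbus and a median log2 ratio of -0.58. For this list and those that follow, the shares over all genes tested were 40.6% higher in the cornea and 33.2% in the limbus. Among the 4989 genes at least as abundant as the scarcest of the 29, the shares were 56.7% and 28.8%. Msmo1, the C4 methyl oxidase listed under its older name Sc4mol, had 7473 corneal and 2796 limbal reads and a log2 ratio of -1.32 (-1.39 to -1.26). Cyp51, the lanosterol demethylase, had 6638 corneal and 3262 limbal reads (log2 ratio -0.93), and Tm7sf2, a sterol reductase, had 957 and 571 (log2 ratio -0.65). These 3 enzymes lay within the range of the 29 genes. The gene higher in the limbus was Acat1, the mitochondrial thiolase, named after its values were seen, at a log2 ratio of 0.11 (0.01 to 0.22). Acat3, with 1 and 4 reads, was not tested, and Idi2 was listed at 0 in both, where a count of 0 allows up to 3 reads.

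The isoprenoid branches, which use farnesyl and geranylgeranyl diphosphate for prenylation, ubiquinone and dolichol, had 6 of 15 genes higher in the cornea, 1 in the limbus and 8 with intervals that included 0. Their median log2 ratio of -0.06 and their corneal share lay near those of all genes tested, -0.05 and 40.6%. The sign of the median turned when reads were scaled to totals. Pggt1b, a subunit of the enzyme that adds geranylgeranyl groups, had 601 corneal and 238 limbal reads (log2 ratio -1.24, -1.46 to -1.02), and Zmpste24, the protease that trims prenylated prelamin A, had a log2 ratio of -0.80. Genes of SREBP processing and of sterol-linked protein turnover gave 9 of 13 higher in the cornea against 2 in the limbus, with a median of -0.49. Among them Rnf139, a ubiquitin ligase of the endoplasmic reticulum, had 1257 corneal and 534 limbal reads (log2 ratio -1.14, -1.29 to -0.99). Mbtps2, the second SREBP protease, had 449 and 199 (log2 ratio -1.08, -1.33 to -0.83). Erlin2 and Pgrmc1, binding partners of this system, had log2 ratios of -0.82 and -0.79. The genes of this list that were higher in the limbus were Syvn1 and Aup1, named after their values were seen.

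Sterol uptake and lysosomal release gave 8 of 11 genes higher in the cornea against 1 in the limbus, with a median log2 ratio of -0.29. Mylip, the ligase that degrades lipoprotein receptors, had 3791 corneal and 1770 limbal reads (log2 ratio -1.003, -1.08 to -0.92), and Lrp8, a receptor of the same family, had 108 and 62 (log2 ratio -0.70, -1.18 to -0.24). The list for efflux, sterol esters and liver X receptors went the other way under every scaling. Of 16 genes tested, 12 were higher in the limbus against 3 in the cornea, with a median log2 ratio of 1.38, and the summed normalized reads were 3.01-fold higher in the limbus. Most of that sum came from Apoe and Apod, and without both, an alternative chosen after seeing the data, it was 1.14-fold higher in the limbus and the median was 1.11. Apoe, the apolipoprotein that carries cholesterol out of macrophages and glia, had the most limbal reads of the list, 21765, against 3451 corneal reads, and its log2 ratio was 2.75 (2.70 to 2.80). Apod, a lipid-carrying lipocalin named after its values were seen, had 5895 corneal and 16208 limbal reads, a log2 ratio of 1.55 (1.51 to 1.60). Gramd1b, a carrier of sterol from plasma membrane to endoplasmic reticulum, had 19 corneal and 120 limbal reads (log2 ratio 2.75, 2.05 to 3.54). Abcg4, a sterol exporter, had 10 and 45 (log2 ratio 2.27), and Nceh1, an ester hydrolase, had 25 and 100 (log2 ratio 2.10). Gramd1c was the gene of this list at least 1.5-fold higher in the cornea, with 249 and 136 reads and a log2 ratio of -0.78 (-1.09 to -0.47).

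Genes of fatty acid supply, elongation and the other desaturases had no common direction, unlike the 8 synthesis genes. Of 25 tested, 9 were higher in the cornea against 7 in the limbus, with a median log2 ratio of 0.02. Hacd2, the dehydratase of the elongation cycle listed as Ptplb, had 2995 corneal and 1328 limbal reads (log2 ratio -1.08, -1.17 to -0.98), and Hsd17b12, the reductase of that cycle, had 5252 and 2567 (log2 ratio -0.94). Acsl4, which activates polyunsaturated fatty acids, and Oxsm, of mitochondrial synthesis, had log2 ratios of -1.16 and -1.15. On the limbal side, Acacb, the mitochondrial carboxylase, had 10 corneal and 74 limbal reads and a log2 ratio of 2.98 (2.02 to 4.10), opposite to that of Acaca. Me1, the malic enzyme that supplies NADPH, had 247 corneal and 644 limbal reads (log2 ratio 1.48, 1.26 to 1.70), and Elovl4, an elongase of very long chains, had 26 and 47 (log2 ratio 0.95, 0.23 to 1.70). Of the remaining stearoyl-CoA desaturases, Scd3 had 4 corneal and 0 limbal reads and Scd4 had 40 and 22, both named after their values were seen and both resting on few reads.

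Triglyceride and phospholipid synthesis gave 8 of 19 genes higher in the cornea against 5 in the limbus, with a median log2 ratio of -0.04 whose sign turned under scaling to totals. The corneal share of this list lay near the 40.6% of all genes tested. Gpam, the first acyltransferase of the glycerolipid pathway, had 284 corneal and 145 limbal reads (log2 ratio -0.87, -1.17 to -0.58), and Lpcat3, which puts polyunsaturated chains into phospholipids, had 3145 and 1707 (log2 ratio -0.79). Agpat4 and Pemt lay on the limbal side, at log2 ratios of 1.60 and 0.99, on at most 108 reads in a library. Fatty acid oxidation gave 10 of 20 genes higher in the limbus against 5 in the cornea, with a median of 0.12. Cpt1a, the gate of mitochondrial import, had 2800 corneal and 1244 limbal reads (log2 ratio -1.07, -1.17 to -0.98), whereas its relative Cpt1c had 22 and 125 (log2 ratio 2.60, 1.94 to 3.33). The regulators were split too, with log2 ratios of -0.59 for Ppara and 0.82 for Ppargc1a. Ppard, a regulator named after its values were seen, had 1045 corneal and 1262 limbal reads (log2 ratio 0.37, 0.25 to 0.49). The peroxisomal enzyme Ehhadh had a log2 ratio of -0.67.

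**Figure D4:**
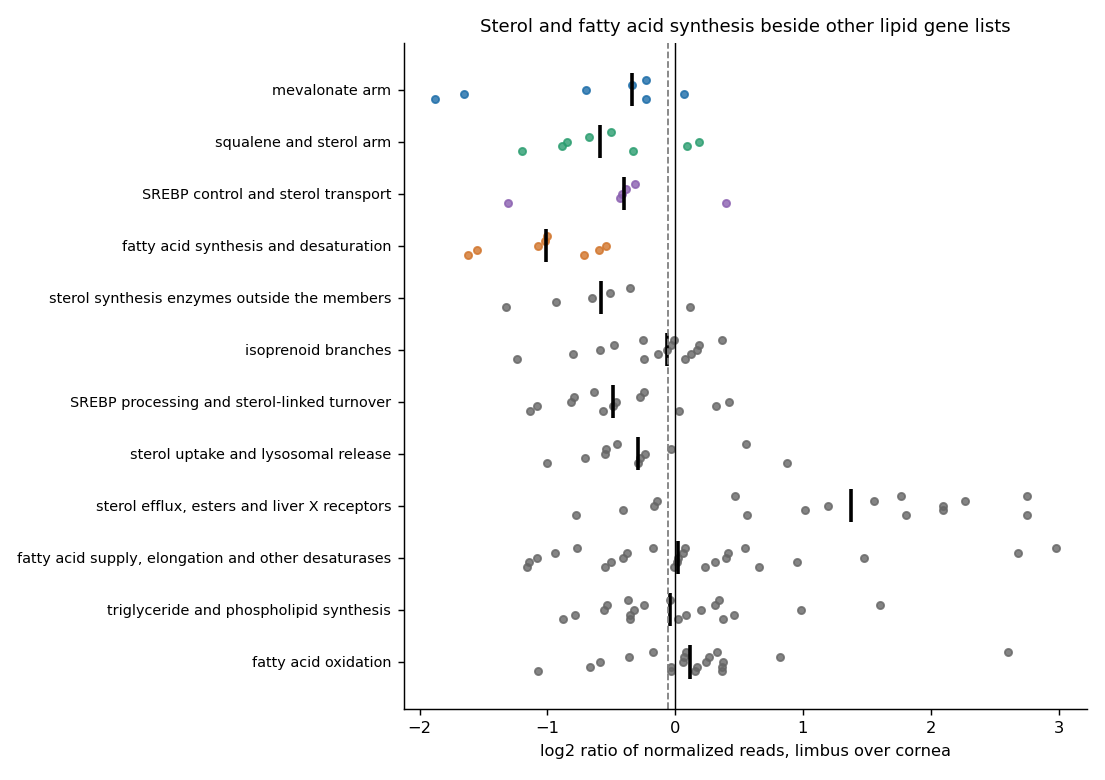
The log2 ratio of limbus over cornea of every gene tested in the 4 groups of the 29 genes (colored) and in 8 lists of other lipid genes (gray); short bars are medians, the solid line is 0 and the dashed line the median of all genes tested. The fatty acid group has the lowest median, -1.01, and the efflux list the highest, 1.38.

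Markers of cell types also differed between the libraries, and those of each type were summed as normalized reads. Of 11 corneal epithelium markers 8 were higher in the cornea and 3, Krt14, Krt15 and Krt19, in the limbus, and their sum was 2568930 in the cornea against 1488860 in the limbus, 1.73-fold higher in the cornea. The size of this difference turned on single keratins: in alternatives chosen after seeing the data, the sum was 1.18-fold higher in the cornea without Krt12 and 2.43-fold higher without Krt14, Krt15 and Krt19. The summed reads of the 29 genes were 1.87-fold higher there, and none of the 11 epithelial markers was at 0. Keratocyte and corneal endothelium lists went both ways, with sums 1.36-fold and 1.22-fold higher in the limbus. Several lists of other types were higher in the limbus, among them skeletal muscle (8 of 8 tested, 24.9-fold by sum), retina (10 of 10, 9.58-fold), macrophages and leukocytes (10 of 10, 1.92-fold) and Schwann cells (8 of 8, from 5252 to 9192 normalized reads). Most of the leukocyte sum came from Itgam (6003 corneal and 8793 limbal reads) and most of the Schwann sum from Mbp (4334 and 5495), both named after their values were seen. Each had the lowest log2 ratio of the tested markers of its list, 0.65 and 0.44. Conjunctival goblet and secretory epithelium markers summed to 93768 in the cornea against 302553 in the limbus, with Muc5b, Tff1 and Tff3 at 0. The lacrimal gland list went the other way by sum, with 129426 in the cornea against 58857 in the limbus, most of it from Aqp5. Of its 2 markers tested, 1 was higher in the cornea and 1 in the limbus. The part of these differences in the ratios of the lipid genes was not tested.

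Markers of cell types known for high lipid synthesis were also summed. Meibomian and sebaceous gland markers summed to 2517 normalized reads in the cornea against 3041 in the limbus, most of it from Dgat2 and Plin2, and of the 7 tested 3 were higher in the limbus against 1 in the cornea. Awat1 and Mc5r were at 0 in both libraries, Awat2 had 6 corneal and 11 limbal reads, and Elovl3 had 0 and 1. Other markers of this list had more reads in the limbus, with 23 corneal and 151 limbal reads for Cidea, 136 and 618 for Mgst1, 1 and 23 for Fa2h, 0 and 13 for Krt79 and 2 and 13 for Pparg. On the corneal side of this list, Plin2 had 976 corneal and 421 limbal reads (log2 ratio -1.12), Soat1 had 119 and 101 and Scd3 had 4 and 0. Adipocyte markers summed to 749 normalized reads in the cornea against 524 in the limbus, most of them from Lipe (756 corneal and 366 limbal reads). Without Lipe, an alternative chosen after seeing the data, the sums were 17.4 and 146, higher in the limbus, where Fabp4 had 94 reads against 5, Plin4 35 against 1 and Cfd 9 against 0. Lep went the other way, with 11 corneal and 2 limbal reads. Plin1, Cidec, Retn and Pck1 were at 0 in both libraries and Adipoq had 1 read in each.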

How the data were processed

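In CLC Genomics Workbench 20 the authors trimmed reads and aligned them to GRCm38 (mm10), and their methods name TMM normalization. They deposited 1 table with, per gene, a mean signal, read here as the mean of reads divided by size factors. The factors used here, 1.03 for cornea and 0.967 for limbus, were worked back and are not among the deposited values. The deposited table also holds a log2 fold change, its standard error and p-values of the authors' own comparison. These are not printed here. The fold change and standard error served only to choose, among the pairs of read numbers that a mean allows, the pair that predicts them under a shrinkage model. The mean alone allowed 1 pair for 6143 genes and several for 11299. All 17442 genes with a mean above 0 were met to within 0.001 in sum, 19 of them with their own dispersion. Reads are thus derived values, and each library has only 1 value per gene. On data simulated with the same model and size factors, both read numbers were found exactly for all 17072 genes, and 200 of 200 changed genes had the right direction. That run checks the calculation only. It cannot show that the model or the size factors hold for the deposited values, because both were built into the simulated ones. The 17484 rows without a gene name were left out.

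The design allowed for counts per sample. Since the table held none, each tissue was 1 library, and no test across replicates was made. Genes above 3 reads in each library were tested against counting error by exact Clopper-Pearson intervals at the 95% level. Depth was 26104317 corneal and 21182025 limbal reads. Lengths and positions are from GENCODE M21 and promoters from RefSeq (GRCm38.p6). The table's accession column was not used, because 2 of the 18554 accessions found in RefSeq matched the symbol of their row. The named genes are the 29 genes and, per pathway list, up to 4 in each direction with at least 50 reads over both libraries, an interval without 0 and at least 1.5-fold. Another 3 genes of these lists are not reported here and were left out of their counts. The genes and lists were chosen with earlier results of these data known. Alternatives were total reads, a trimmed mean of M-values (30% and 5% trimmed), a pseudocount of 1, centring, a mean of at least 50 and 99% intervals. Python 3.11.15, numpy 2.4.6, scipy 1.17.1 and pandas 2.3.3 were used.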

Additional observations from a re-analysis of the deposited data

How the results depend on the processing

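No paired analysis was possible because the table holds 1 library per tissue and no value for a numbered sample. For the same reason no library could be left out. The 25 genes on the corneal side stayed there under each scaling tried, and no ratio of the 29 genes changed sign. Scaled to total reads, 1 gene (Scap) was at least 1.5-fold higher in the limbus, against 0 with the size factors, and 11 in place of 15 were at least 1.5-fold higher in the cornea. Under that scaling the intervals of Mvk and Pmvk included 0. With the trimmed mean of M-values or after centring on the median of all genes, 14 genes were at least 1.5-fold higher in the cornea, and the median of the 29 genes was -0.58 and -0.54. Intervals at 99% left 25 genes higher in the cornea, with 3 on the limbal side. A pseudocount of 1 and a minimum mean of 50 bear on none of these counts, because every one of the 29 genes has a mean of at least 831. Depth left the direction of Dhcr7 unresolved with the size factors, and it leaves wide intervals for genes such as Abcg4 and Acacb. What is missing is the spread between animals.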
